A study of Mus musculus with 27 samples.

Results

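Cells sorted from the ventral tegmental area (VTA) of adult mice were compared with cells sorted from the neighbouring substantia nigra pars compacta (SNc). The comparison holds 6 of the 27 libraries of the series, taken by region and age label: VTA at postnatal day 60 (P60), replicates 1, 2 and 3, and SNc at P60, replicates 1, 3 and 4. Both groups are C57/BL6 mice, and no treatment, transgene or other allele is named in the labels. The cells were isolated by flow cytometry as DAT+, that is, carrying the dopamine transporter, and the labels call them dopaminergic neurons. How the transporter was detected is not given in the sources used here. RNA was amplified with SMART-seq2, a full-length cDNA method for few cells, and sequenced on an Illumina NovaSeq. The design text names 5 mice per age and does not tie mice to libraries, so libraries may share mice and p-values measure the spread between libraries, which may be technical.

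SNc and VTA hold the main dopaminergic neurons of the midbrain. SNc neurons project to the dorsal striatum and are the cells lost first in Parkinson disease, whereas VTA neurons project to the nucleus accumbens and cortex and serve reward and motivation. Both kinds make dopamine from tyrosine through tyrosine hydroxylase and aromatic amino acid decarboxylase, and the adult midbrain around them is rich in oligodendrocytes, the cells that wrap axons in myelin.

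Values are FPKM, a read density per length of gene and per depth of library, put on a common scale by dividing by the reads that fell in genes. The SNc libraries held 9838685, 12439041 and 11413062 reads in genes and the VTA libraries 13109675, 11007292 and 12778844. One library in each group stood apart by its number of genes with a read: SNc replicate 3 had 12736 and VTA replicate 2 had 12914, against 17108 to 18471 in the other 4. Across the 18888 genes tested, rank correlations of libraries of the same region were 0.681 to 0.835 (6 pairs, median 0.705) and those of libraries of different regions 0.660 to 0.828 (9 pairs, median 0.708). The library nearest to SNc replicate 1 was VTA replicate 1 (0.828). Between replicates of a region the variance was 34.3 to 296.6 times that of read sampling.

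The 250 bases before the gene start (RefSeq, GRCm38.p6) are shown for Mobp, the myelin gene with the largest fitted difference, and for A930024E05Rik, an RNA that passed the test. Capitals mark ACAAAG or ACAATG, or their reverse complements CTTTGT and CATTGT, which are core motifs of SOX transcription factors. SOX10, a member of that family, drives myelin genes in oligodendrocytes.
Mobp, chr9:120149492-120149741, plus strand: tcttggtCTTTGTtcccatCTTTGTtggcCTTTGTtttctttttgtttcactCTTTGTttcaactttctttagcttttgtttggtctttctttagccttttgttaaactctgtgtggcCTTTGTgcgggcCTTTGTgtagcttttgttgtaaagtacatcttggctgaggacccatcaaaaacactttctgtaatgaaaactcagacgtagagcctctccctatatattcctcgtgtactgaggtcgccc
A930024E05Rik, chr5:122989104-122989353, plus strand: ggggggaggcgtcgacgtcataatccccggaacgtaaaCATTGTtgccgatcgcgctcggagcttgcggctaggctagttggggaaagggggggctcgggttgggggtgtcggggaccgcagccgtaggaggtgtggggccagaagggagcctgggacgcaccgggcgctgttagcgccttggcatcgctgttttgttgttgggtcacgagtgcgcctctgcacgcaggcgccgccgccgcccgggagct
The Mobp window held 6 matches, all of ACAAAG on the opposite strand, from 120 to 243 bases before the start. The A930024E05Rik window held 1 match, of ACAATG. The 2 hexamers differ at the fifth letter and cannot match at the same place on a strand. Over 32851 RefSeq promoters of the same length, 16.5% held ACAAAG, 10.7% ACAATG and 25.2% either of them. Of the 16 genes of the myelin list described below, 12 had a promoter in that table and 7 of the 12 held either hexamer. These are matches of letters, which do not show binding.

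The comparison asked how the sorted cells of the 2 regions differ in adulthood. Of 18888 genes tested, 2 passed an adjusted p of 0.05 (0.0106%) in limma's moderated test with Benjamini-Hochberg adjustment: 1 was lower in VTA (0.00529%), Mbp, and 1 was higher (0.00529%), the antisense RNA A930024E05Rik. At an unadjusted p under 0.05 there were 645 genes (3.41%). The 3 values of VTA lay all above those of SNc for 792 genes (4.19%) and all below for 712 (3.77%), which is 7.96% in either direction. The median log2 fold change of all genes tested was 0.02 (VTA minus SNc, as throughout).

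**Figure D1:**
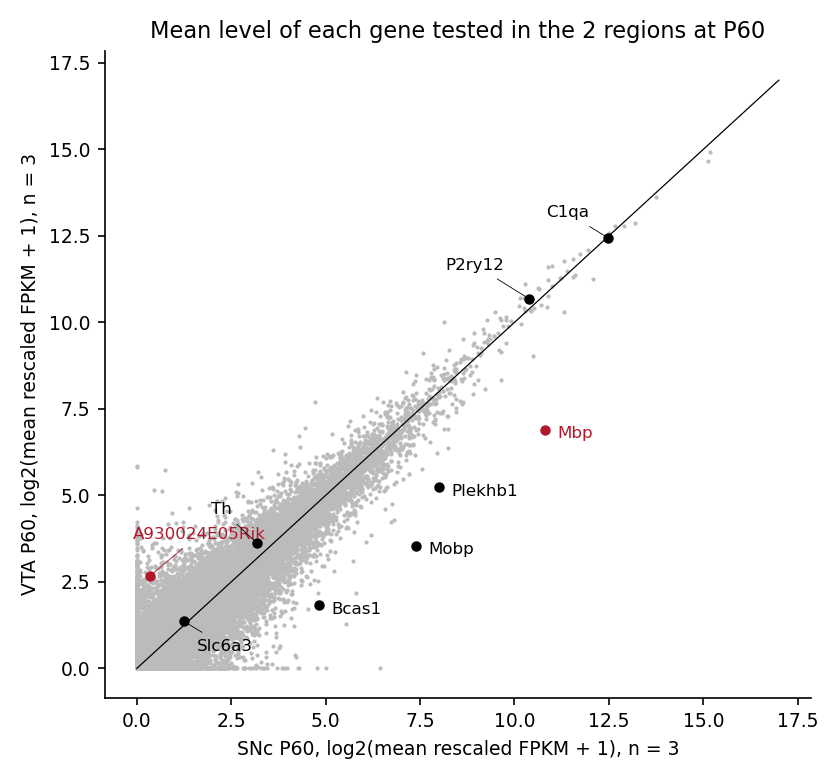
Mean level of the 18888 genes tested in SNc P60 (horizontal) and VTA P60 (vertical), each the log2 of the mean rescaled FPKM plus 1 over 3 libraries, with the line of equal levels. Red points passed the adjusted p of 0.05: Mbp lies far below the line and A930024E05Rik above it at a low level, while P2ry12 and C1qa lie close to the line.

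Mbp, the gene of myelin basic protein, which compacts the myelin sheath (ENSMUSG00000041607, chromosome 18, 82475146 to 82585637, plus strand, GRCm38), was the clearest difference. Its values were 1669.6, 1432 and 2252 in SNc and 130.2, 86.9 and 135.2 in VTA. The lowest SNc library lay far above the highest VTA library. The means were 1785 ± 422 and 117.4 ± 26.6 (SD, n = 3), a 15.2-fold difference, and the log2 fold change was -3.92 ± 0.52 (SE), with an adjusted p of 0.00176 in limma. Mbp was called in 14 of 17 other settings; the adjusted p was 0.283 on the deposited scale, 0.106 in a fit of the 6 libraries alone, and 0.757 in that fit with the replicate number as a block. Without 4 libraries, among them SNc replicate 3 and VTA replicate 2, the log2 fold change was -3.86 (adjusted p 0.00216). The gene also encodes golli proteins in other cells, and the table does not separate its isoforms.

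A930024E05Rik (ENSMUSG00000056735, chromosome 5, 122989354 to 122998345, plus strand) is an antisense RNA that begins inside Kdm2b, the gene of a histone demethylase on the minus strand (122870665 to 122989823). It falls outside the rule for named genes, as a RIKEN clone, and was named after its values were seen. Its values were 0.214, 0 and 0.601 in SNc and 4.91, 4.94 and 6.23 in VTA. All 3 VTA libraries were above all 3 of SNc, at a low level. The log2 fold change was 2.34 ± 0.38, with an adjusted p of 0.0202 in limma. It was called in 7 of 16 other settings. The adjusted p in limma was 0.189 without SNc replicate 1, 0.108 without SNc replicate 3 and 0.0548 without VTA replicate 3. Without the 4 libraries it was 0.186, and with the replicate number as a block 0.104. At a pseudocount of 0.1 it was 0.898. In the fit of the 6 libraries alone it was 0.933, and 0.757 with the block. The gene was also not called in the fit of the 9 P60 libraries. Kdm2b itself was at 1.91, 3.79 and 3.09 in SNc and at 3.26, 13.2 and 4.53 in VTA, with overlapping groups. Whether reads were counted by strand is not given in the sources used here, so reads of the 2 genes where they overlap cannot be told apart.

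The other genes of myelinating oligodendrocytes leaned the same way as Mbp. All 16 members tested, Mbp among them, had a negative log2 fold change, against 8568 of 18888 genes. Their median was -1.71 beside 0.02. With each P60 library left out in turn the median ran from -2.10 to -1.35. Mbp was the member that passed the test, and 6 members had an unadjusted p under 0.05 and lower VTA values (1.38% of all genes did). All VTA values lay below all SNc values in 6 members (3.77% of all genes). The summed level of the 16, Mbp included, was 2728 to 2986 in SNc and 341 to 673 in VTA. Mbp alone was at 1432 to 2252 in SNc and 86.9 to 135.2 in VTA, so it weighs heavily in these sums. Reads of the 16, again with Mbp, were 1.87%, 1.78% and 2.20% of reads in genes in SNc. In VTA they were 0.317%, 0.171% and 0.210%. Fewer oligodendrocytes, or less of their RNA per cell or in the surrounding fluid, cannot be told apart in such bulk samples.

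Mobp, another structural protein of central myelin, was at 222, 140 and 136 in SNc and at 17.7, 1.43 and 12.9 in VTA. Its groups lay far apart, and its log2 fold change of -4.24 ± 0.78 had an adjusted p of 0.0673 in limma. It was called after quantile normalization (adjusted p 0.0221) and without VTA replicate 1 (0.0300). Mog, a protein of the outer myelin surface, was at 49.3, 122.9 and 26.7 in SNc and at 31.6, 0.640 and 2.30 in VTA, where replicate 1 lay within the SNc range. Trf, transferrin, which oligodendrocytes make, overlapped, at 37.6, 37.0 and 26.9 in SNc and 38.6, 25.1 and 31.3 in VTA. The fitted log2 fold changes of the list ran from -4.24 for Mobp to -0.10 for Trf.

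**Figure D2:**
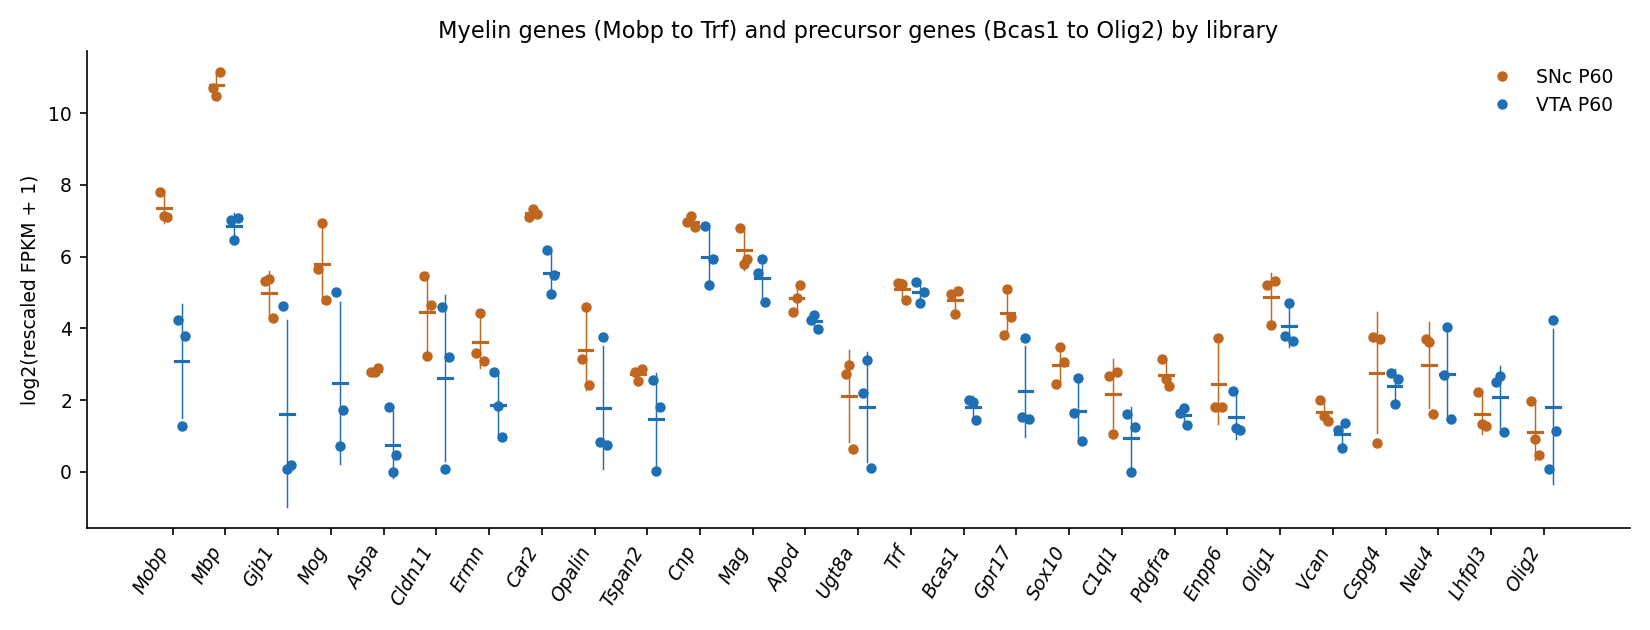
Levels (log2 of rescaled FPKM plus 1) in each library of genes of myelinating oligodendrocytes (1 of the 16 not drawn) and of the 12 genes of precursors and committed precursors, each set ordered by fitted fold change. Points are libraries, bars means and thin lines 1 SD (n = 3): Mbp, Mobp, Aspa and Bcas1 separate fully, whereas Trf and Ugt8a overlap.

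Genes of oligodendrocyte precursors leaned the same way. Of 12 members, 4 had all SNc values above all VTA values (3.77% of all genes did) and the median log2 fold change was -0.86. None passed the test, and 2 had an unadjusted p under 0.05 and lower VTA values (1.38% of all genes). Several genes named here overlap annotated genes on the opposite strand (Mbp, Bcas1, Ddc, Aldh1a1, Bfsp2 and Errfi1 among them) or the same strand (Mobp). The reads of such pairs cannot be told apart. The pseudogene inside Mbp, Rpl21-ps8, was at 10.6, 6.22 and 21.3 in SNc and at 9.42, 7.98 and 11.8 in VTA. Gm38642, which overlaps Mobp, was at 0 in all 6 libraries. Bcas1, which marks newly committed oligodendrocytes, was at 30.4, 19.95 and 31.7 in SNc and at 3.03, 2.84 and 1.72 in VTA, a 10.8-fold difference of means with an adjusted p of 0.295 in limma. Pdgfra, the growth factor receptor of precursors, was at 7.84, 4.99 and 4.22 in SNc and at 2.15, 2.41 and 1.48 in VTA, without overlap. Olig2, a transcription factor of the lineage, did not share this order, with the highest value of all 6 libraries in VTA replicate 2 (17.9).

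Astrocyte genes leaned toward SNc as well. Of 19 members, 17 had a negative log2 fold change (8568 of 18888 genes did). All SNc values lay above all VTA values in 12 (3.77% of all genes). The median was -0.78 (-0.92 to -0.65 with each P60 library left out). None passed the test, while 3 had an unadjusted p under 0.05 and lower VTA values (1.38% of all genes). Gfap, the intermediate filament of astrocytes, was at 91.2, 126.4 and 106.1 in SNc and at 29.7, 24.1 and 24.7 in VTA. Slc1a2, the main glutamate transporter, was at 85.1, 65.7 and 90.2 in SNc and at 44.9, 42.3 and 50.6 in VTA. Both groups separated for these genes. The other astrocytic glutamate transporter, Slc1a3, was at 34.6, 28.9 and 26.8 in SNc and at 33.7, 28.4 and 36.9 in VTA, with overlap. Summed astrocyte levels were 2025 to 2623 in SNc and 991 to 1509 in VTA. Apoe, a lipid carrier of astrocytes and of reactive microglia, was at 2449, 1714 and 3418 in SNc against 1463, 771 and 1558 in VTA.

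A count model with weights for library quality (voom in limma, on reads recovered from FPKM) called 272 genes (1.44%), 163 higher and 109 lower in VTA, among them Mbp and A930024E05Rik. Of these 272 genes, 84 had groups that did not overlap. The count model called 5 of the 16 myelin genes (Mbp, Mobp, Car2 and Mag among them), Bcas1 among precursors, and 7 of the 19 astrocyte genes, all lower in VTA. The astrocyte genes were Cldn10, Clu, Ntsr2, Aqp4, Atp1b2, Slc1a2 and Gja1, with adjusted p between 0.015 for Aqp4 and 0.048 for Cldn10. In this model 4 genes of the early response to dissociation (Nr4a1, Junb, Btg2 and Dnaja1) were higher in VTA.

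Dopaminergic genes, for which the cells were sorted, were low in all 6 libraries. Slc6a3, the dopamine transporter, was at 1.35, 0.326 and 2.48 in SNc and at 1.79, 2.08 and 0.815 in VTA, from 14 to 98 reads. Th, tyrosine hydroxylase, was at 4.34, 0 and 19.9 in SNc and at 2.84, 26.1 and 4.83 in VTA. Pitx3, a transcription factor that midbrain dopaminergic neurons need, had 0 reads in each of the 6 libraries. Both groups overlapped for Slc6a3 and Th, and the spread within a region was larger than any gap between them. By contrast the microglial genes ranked high in all 6 libraries: the median homeostatic microglial gene ranked at the 97.9 to 99.4 percentile of genes tested. C1qa, a complement subunit of microglia, was at 6167, 3135 and 7861 in SNc and at 6923, 2614 and 7118 in VTA. P2ry12, their purinergic receptor, was at 1896, 1317 and 790.6 in SNc and at 1900, 1202 and 1832 in VTA. These levels go against the label of dopaminergic neurons, and the groups are therefore called SNc and VTA libraries here.

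**Figure D3:**
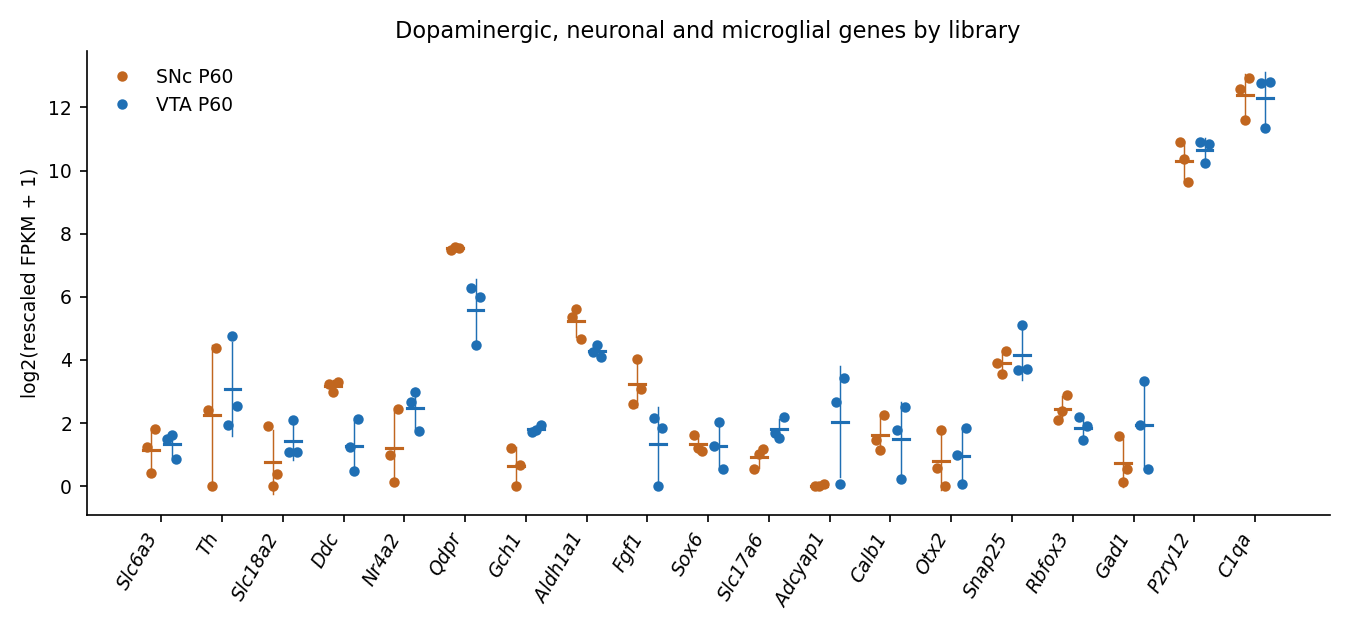
Levels (log2 of rescaled FPKM plus 1) in each P60 library of dopaminergic genes, of genes reported as enriched in SNc or VTA neurons, of other neuronal genes and of microglial genes, chosen to show each kind. Points are libraries, bars means and thin lines 1 SD (n = 3). Ddc, Qdpr and Aldh1a1 separate with SNc higher, and Gch1 and Slc17a6 with VTA higher. Slc6a3 and Th overlap and lie far below P2ry12 and C1qa.

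Genes of dopamine synthesis, storage, transport and breakdown differed in both directions. Of 19 members tested, 2 had all SNc values above all VTA values (3.77% of all genes did) and 1 had the reverse (4.19%). The median log2 fold change was 0.00 and none passed the test, while voom called 2 lower in VTA, Qdpr (adjusted p 0.00358) and Gfra1 (0.0104). Gfra1, a growth factor receptor that the list also holds, was at 0.780, 0.0147 and 2.16 in SNc. In VTA it was at 0.0139, 0.0166 and 0, so its groups overlapped at a low level. Ddc, aromatic amino acid decarboxylase, was at 8.41, 6.88 and 8.94 in SNc and at 1.35, 0.387 and 3.37 in VTA (log2 fold change -1.90 ± 0.63, unadjusted p 0.00606, adjusted p 1). Qdpr, which regenerates the cofactor of tyrosine hydroxylase and is abundant in other cells too, was at 178.6, 191.0 and 185.5 in SNc and at 76.8, 21.1 and 62.4 in VTA. The SNc libraries were the higher ones for both. Gch1, the first enzyme of that cofactor's synthesis, was higher in each VTA library, at 1.32, 0 and 0.603 in SNc and at 2.31, 2.41 and 2.79 in VTA. Nr4a2 (Nurr1), a transcription factor of these neurons, was at 1.00, 0.0990 and 4.49 in SNc and at 5.41, 6.89 and 2.35 in VTA, with overlap.

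Genes known to distinguish the 2 kinds of neuron had medians near 0, at -0.02 for those enriched in SNc neurons and 0.15 for those enriched in VTA neurons, and none passed the test. Of 15 tested genes enriched in SNc neurons, 3 had all SNc values above all VTA values, against 3.77% of all genes. Of 16 enriched in VTA neurons, 2 had all VTA values above all SNc values, against 4.19% of all genes, and voom called 1 of them, Adcyap1, higher in VTA. Aldh1a1, a retinaldehyde dehydrogenase of ventral SNc neurons, was at 40.2, 48.4 and 24.5 in SNc and at 18.2, 21.1 and 15.96 in VTA. Slc17a6, the vesicular glutamate transporter of VTA neurons that release glutamate, was at 0.452, 1.03 and 1.25 in SNc and at 2.23, 1.90 and 3.54 in VTA. Adcyap1, the neuropeptide PACAP, was at 0, 0 and 0.0420 in SNc and at 5.30, 0.0435 and 9.71 in VTA. These groups do not overlap, although VTA replicate 2 lay next to the SNc values for Adcyap1. Sox6 and Calb1, which mark SNc and VTA subtypes, overlapped between the groups.

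Neuronal genes were low in both regions, with summed levels of the 16 pan-neuronal genes of 99.9 to 194 in SNc and 86.0 to 125 in VTA. Their median log2 fold change was -0.41, and 2 members had all SNc values above all VTA values (3.77% of all genes did). Snap25, a synaptic fusion protein, was at 13.98, 10.7 and 18.6 in SNc and at 11.7, 33.4 and 12.2 in VTA. Among peptides of hypothalamic and midbrain neurons, Cartpt was at 0.0796, 0.0630 and 0.480 in SNc and at 4.72, 6.05 and 1.78 in VTA, and Pomc at 7.17, 0.610 and 1.53 against 8.68, 8.69 and 19.4. Both were higher in every VTA library and neither passed the test. Of the 18 neuropeptide genes, 11 had a positive and 7 a negative log2 fold change, with a median of 0.18 (-0.23 to 0.53 with each P60 library left out). All VTA values lay above all SNc values in 3 (4.19% of all genes) and the reverse held in 1, Npy (3.77%), and voom called Adcyap1 higher and Trh lower in VTA.

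Homeostatic and identity genes of microglia overlapped throughout. Of 20 homeostatic genes and 20 identity genes, 0 had groups that did not overlap (7.96% of all genes did). An unadjusted p under 0.05 was found for 0 of them (3.41% of all genes), and the medians were 0.19 and 0.04. Il1b, an inflammatory cytokine (unadjusted p 0.0206), was at 20.4, 0 and 4.32 in SNc and at 24.1, 15.4 and 111.6 in VTA. Of 21 genes of disease-associated microglia, 3 (Csf1, Ctsb and Ctsz) had all VTA values above all SNc values, against 4.19% of all genes, and 3 (Apoe, Ank and Cd63) had the reverse, against 3.77%. Their median was 0.02 and none passed the test. Of 17 NF-kB regulators and early inflammatory genes, 13 had a positive log2 fold change and 3 had all VTA values above all SNc values (4.19% of all genes), with a median of 0.63 (0.26 to 0.99 with each P60 library left out). None of these passed the test; 1 had an unadjusted p under 0.05 and voom called 1, Nfkbia, higher in VTA. Border-associated macrophage, chemokine and MHC class II genes (14, 15 and 8 members) had 0 members with separate groups (7.96% of all genes had them).

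Early response and stress genes, which tissue dissociation induces, leaned upward in VTA. Of 26 members, 24 had a positive log2 fold change (9653 of 18888 genes did). All VTA values lay above all SNc values in 8 (4.19% of all genes). The median was 0.60 and none passed the test in limma on log values. Nr4a1, an orphan nuclear receptor, was at 83.4, 87.0 and 72.4 in SNc and at 198, 209 and 271 in VTA, without overlap. Jun, which is also abundant, was at 1754, 1565 and 1370.2 in SNc and at 2419, 1339 and 2366 in VTA, and overlapped. Energy genes leaned the other way. Negative log2 fold changes were found in 55 of 67 nuclear genes of oxidative phosphorylation and 16 of 18 glycolytic genes (8568 of 18888 genes). Their medians were -0.35 and -0.23, with none past the test. The part of the dissociation genes in the myelin and astrocyte differences was not tested.

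**Figure D4:**
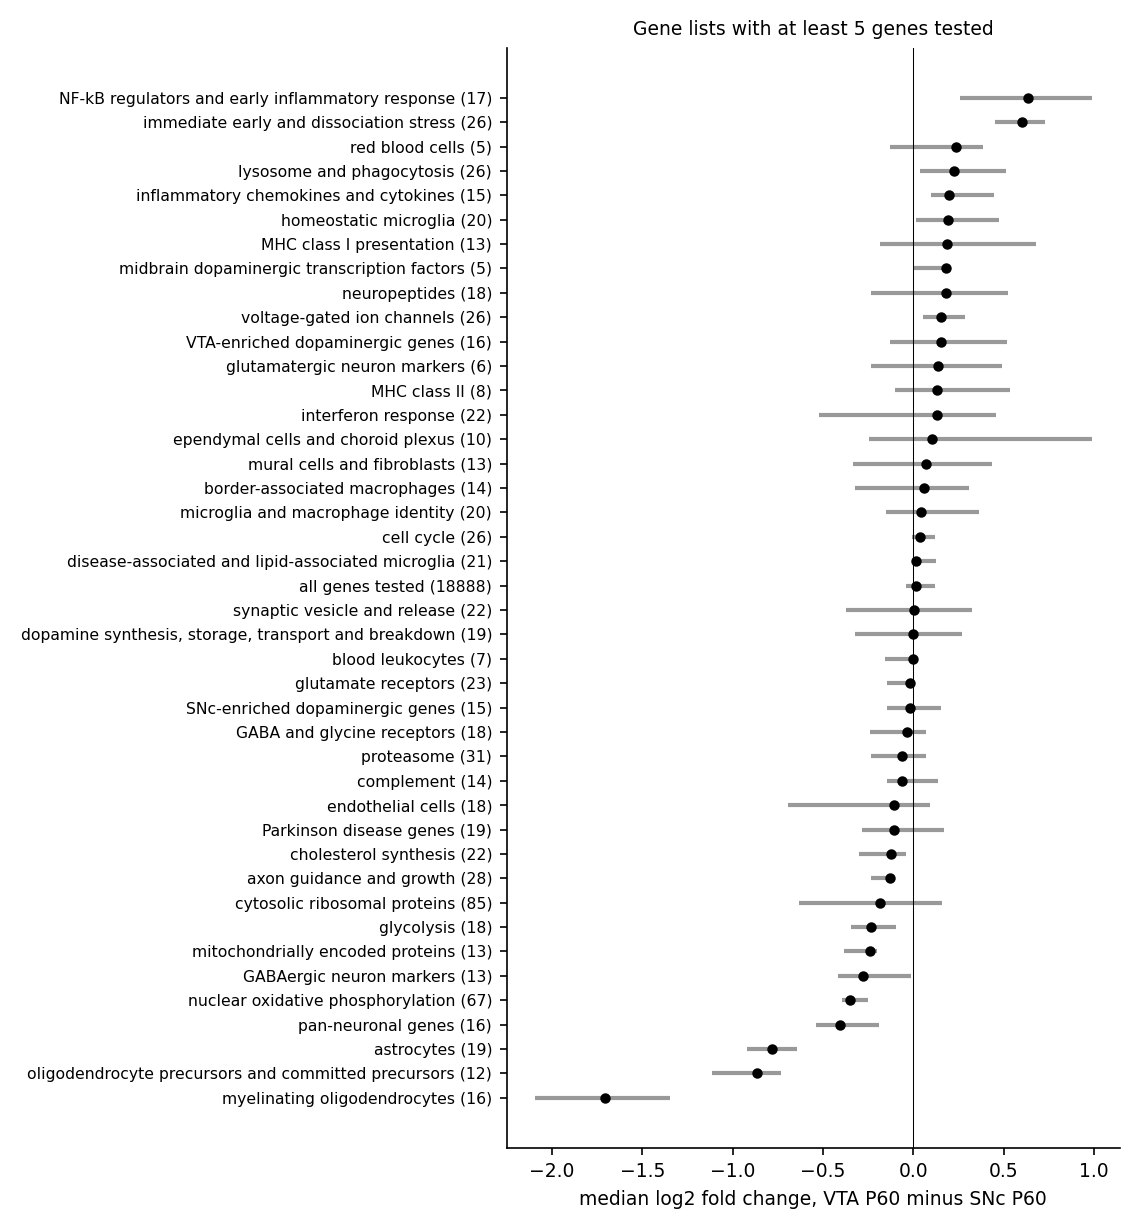
Median log2 fold change (VTA P60 minus SNc P60) of each gene list, with the number of genes tested in parentheses; points are the fit of all libraries and grey lines the range when each P60 library is left out in turn. Myelin, precursor and astrocyte lists lie lowest, at -1.71, -0.86 and -0.78, and the early response and NF-kB lists highest.

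The other genes named by the rule, which filled each direction by the smallest unadjusted p, did not pass the test. Among those higher in VTA, Scg2, a secretory granule protein, was at 0.687, 0.224 and 9.23 in SNc and at 18.5, 44.2 and 19.9 in VTA. Csf1, the growth factor of microglia, was at 3.08, 0.502 and 2.94 in SNc and at 7.54, 17.1 and 5.50 in VTA. Slc16a10, Bod1, Pttg1, Errfi1, Top3b, Plxdc1, Pmaip1, Nat1, Man2b2 and Pxk completed that side, each with adjusted p over 0.05. Among those lower in VTA, Plekhb1 was at 198.5, 227.9 and 339.7 in SNc and at 41.4, 40.4 and 28.3 in VTA, and Gpm6b, a membrane glycoprotein of neurons and glia, at 126.5, 161.4 and 104.0 against 58.6, 36.5 and 36.4. Dbndd2, Bfsp2, Fabp7, Cryab, Pipox, Trac and Traj27 completed that side. Traj27, a T cell receptor segment, rested on SNc replicate 3, where it was at 248.0 against 8.61 and 0 in the other SNc libraries and 0 in VTA.

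Whether the regional difference at P60 departed from that at the younger ages was tested by the interaction of region and age in the same fit. Of 18888 genes, 73 (0.386%) passed for P60 against P7: in 65 the VTA minus SNc difference was more positive at P60 and in 8 more negative. In all 65 the SNc level at P7 exceeded that of VTA, and 56 of them were called at P7 (2.09% of genes were). The P7 difference is part of the contrast that selected these genes, so these P7 counts are not a separate result. At P60, 0 of the 65 were called, and in 48 both P60 means were under 5. Phlda1, an early response gene, was at 78.1, 75.8 and 57.6 in SNc and 6.55, 8.38 and 0.809 in VTA at P7, and at 3.00, 1.17 and 0.914 in SNc and 8.55, 8.12 and 8.198 in VTA at P60. The values of the regions did not overlap at either age and were in opposite order, although the difference at P60 itself did not pass the test (adjusted p 0.880). Csf2 and Areg, a cytokine and a growth factor, had 0 reads in all 6 P60 libraries.

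Of the 8 genes more negative at P60, all had a higher mean in VTA than in SNc at P7, and Mbp was the one called at P60. Their P7 order, too, enters the contrast that selected them. Mbp went from 9.16, 4.79 and 7.98 in SNc and 17.2, 4.56 and 18.7 in VTA at P7, where the groups overlapped, to the separate values at P60, with an interaction of -4.55 ± 0.74 (adjusted p 0.00352). At P30 Mbp was at 142.7, 177.6 and 322.9 in SNc and at 74.7, 69.8 and 40.7 in VTA, without overlap. That difference did not pass the test (adjusted p 0.154 in limma). Nor did its change from P30 to P60 (-2.18 ± 0.74, adjusted p 0.674 in limma). Against P7, Mobp gave an interaction of -5.74 ± 1.11 (adjusted p 0.0161 in limma). Against P30, 2 genes passed (0.0106%): Ttr, transthyretin, made by choroid plexus, and Snord118, a small nucleolar RNA. Both were higher in SNc at P30, and at P60 their groups overlapped. The median of all genes in this contrast was 0.40, and 0.06 without VTA P30 replicate 3. That library had 6786 genes with a read, against 14546 and 14430 in the other VTA P30 libraries. Its deposited values are also on another scale, which the division by the column sum removes. The cause of the shift was not tested. The library titles of each age carry a date and a code of their own, shared by its regions. Such batches and age therefore cannot be told apart.

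**Figure D5:**
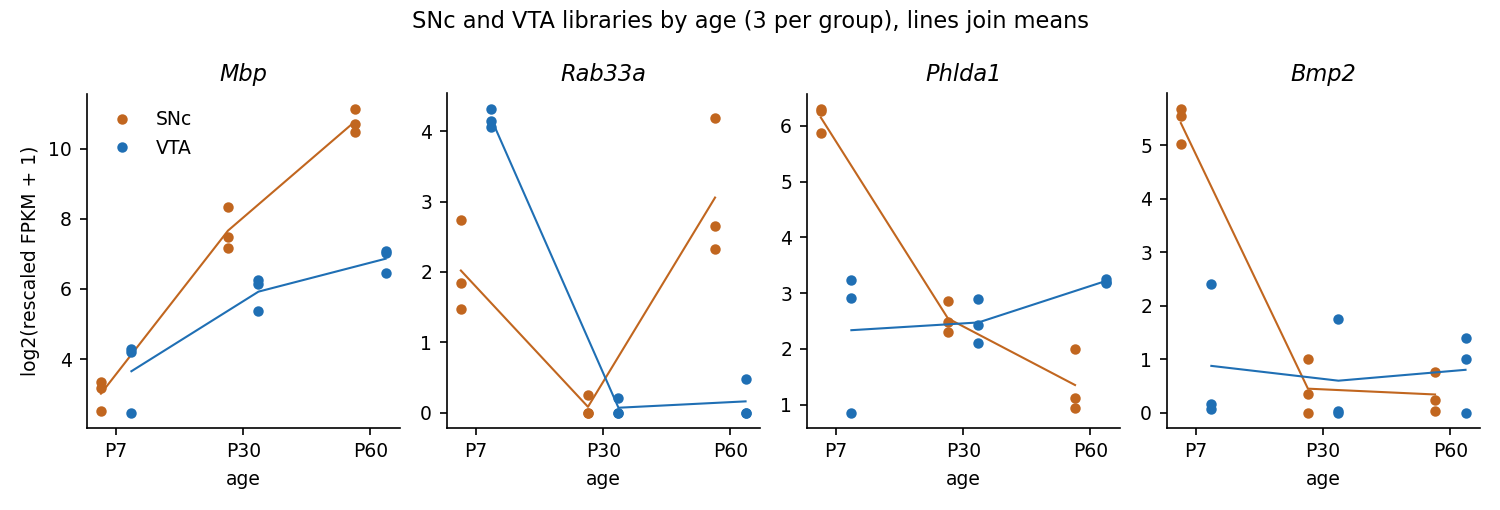
Levels (log2 of rescaled FPKM plus 1) of Mbp, Rab33a, Phlda1 and Bmp2 in the SNc and VTA libraries at P7, P30 and P60, ages equally spaced; points are libraries (3 per group) and lines join group means. The Mbp gap is wider at P60 than at P7, whereas Phlda1 and Bmp2 differ at P7 and are low at P60.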

How the data were processed

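The authors deposited one table of FPKM per gene for 27 libraries, per the file headers; HISAT2 and the build GRCm38 (mm10) come from the submitters' processing notes, and which counter, annotation and strand setting were used is not given in the sources used here. One column (VTA P30 replicate 3) is deposited on another scale and treated as a score: its sum of value times length in kb is 55601698, against 670534 to 948735 elsewhere. Every column was therefore divided by that sum, which puts all libraries on the scale of reads that fell in genes. Whole reads were recovered for 100% of values below 1000 reads (tolerance 0.02). Gene symbols were taken by ID for 54409 of 54532 genes, since 443 deposited names match their ID.

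The filter required a value of 1 or more in 3 or more libraries and left 18888 genes. limma 3.58.1 (R 4.3.3) with trend and robust settings modelled log2(value + 1) in the 27 libraries, with a term per group and Benjamini-Hochberg adjustment over all genes and a threshold of 0.05, so that fold changes understate low genes. The script was tested on simulated reads. These held no libraries with few detected genes, so that test does not measure error rates in the present libraries. Voom on recovered reads, other filters, pseudocounts, scalings and fits without each library were alternatives. The 43 lists and the genes named were chosen with earlier results of these data known. The rule for names took genes past the threshold whose groups do not overlap, and filled up to 12 per direction, with mean at least 5, by the smallest unadjusted p; fixed marker genes and the 10 smallest adjusted p of the interactions were added. Replicate numbers 1 and 3 are shared by the groups, and the correlation of same-numbered deviations was 0.075 and -0.143. The highest correlation was that of SNc replicate 3 with VTA replicate 2 (0.181), the libraries with the fewest genes detected. Such libraries weigh on these deviations, so the check cannot tell whether the numbers pair libraries. One member of the myelin list is counted with the list and not reported here by name.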

Additional observations from a re-analysis of the deposited data

Results flagged for a closer look

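The difference between VTA and SNc was not the same at P60 as at younger ages for 12 genes named here, each tested as the interaction of region and age in limma (log2, P60 minus the younger age). Against P7 the values were 3.24 for Csf2, 5.68 for Phlda1, 3.52 for Dram1, 2.96 for Areg, 4.81 for Fosl2, 5.00 for Bmp2, 3.84 for Ccnb1, 4.26 for Cd4, -4.55 for Mbp and -5.05 for Rab33a. In the 8 positive ones the SNc level was the higher at P7, a difference that enters the interaction itself. Rab33a, a small GTPase, was at 4.04, 17.2 and 5.30 in SNc and 0.395, 0 and 0 in VTA at P60, and at 3.36 ± 2.07 in SNc and 17.1 ± 1.72 in VTA at P7 (SD, n = 3). Against P30 the values were 8.84 for Ttr and 7.26 for Snord118, with adjusted p of 0.0415 and 0.00850.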

How the results depend on the processing

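For VTA against SNc at P60, 2 genes were called (1 higher, 1 lower). The count was 1 at a pseudocount of 0.1, with at least 5 in 3 libraries, with the replicate block and in a fit of the 9 P60 libraries, 4 after quantile normalization (2 higher, 2 lower), 5 without 4 libraries, 272 with voom, and 0 in limma fits of the 6 libraries without and with replicate block (574 and 760 genes at an unadjusted p under 0.05). On the deposited scale both calls were higher in VTA. Leaving out each replicate gave 1 to 11: 11 without VTA replicate 2, 9 without VTA replicate 1, 6 without SNc replicate 4, 4 without SNc replicate 3 or VTA replicate 3, and 1 without SNc replicate 1. For the difference from P7 (73) the counts were 24 at the pseudocount of 0.1, 45 at the filter of 5, 149 after quantile normalization (117 higher, 32 lower), 32 with the replicate block, 716 with voom and 224 without the 4 libraries, and 31 to 130 without each replicate (at P60, 31 without SNc replicate 3, 41 without SNc replicate 4 and 46 without VTA replicate 3, and at P7, 130 without VTA replicate 2). For the difference from P30 (2) they were 1 without a filter, on the deposited scale and after quantile normalization, 5 with voom, 6 without the 4 libraries and 0 to 6 without each replicate (0 without SNc P60 replicate 4 or VTA P60 replicate 1, 1186 and 1161 genes at an unadjusted p under 0.05). The causes were not tested. Of the values of single named genes under these settings, 401 kept their side of the threshold and direction, 12 lost it, 10 gained it and 0 reversed. Most of the 401 belong to genes not called in the main fit that stayed uncalled. All losses fell on the 2 called genes. A930024E05Rik lost its call in 9 settings and kept it in 7, and Mbp lost it in 3 and kept it in 14. The replicate block rests on a shared number only. With 3 libraries a group, differences within the spread of replicates cannot be called.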

Other observations

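Xist, the RNA of the inactive X chromosome, had 0 reads in all 6 P60 libraries, whereas the Y-linked gene Ddx3y was at 2.04 to 22.8 in them. Of the 10 genes of ependymal cells and choroid plexus, 6 had a positive and 4 a negative log2 fold change, with a median of 0.10 (-0.24 to 0.99 with each P60 library left out); 2 had all VTA values above all SNc values (4.19% of all genes) and none passed the test. Their summed levels were 85.2 to 112.5 in SNc and 56.3 to 109.3 in VTA. The 2 members given next were chosen after their values were seen. Foxj1, a transcription factor of ciliated cells, was at 3.02, 0.184 and 4.98 in SNc and at 8.03, 12.2 and 13.7 in VTA, with every VTA library above every SNc library and an unadjusted p of 0.0794. Tmem212, another gene of ciliated cells, was at 0, 0 and 0.122 in SNc and at 13.4, 0 and 27.8 in VTA, where replicate 2 had none; it was the 1 member that voom called (adjusted p 0.0172).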
